A study of Mus musculus with 36 samples.

Results

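The difference between the effect of DFMO in Th17n cells and its effect in iTreg cells was measured for every gene with enough reads. It was the log2 fold change of DFMO over vehicle in Th17n cells minus the same fold change in iTreg cells, so a positive value is a higher DFMO effect in Th17n. The comparison used 24 of the 36 samples of the series, which are 12 of its 18 libraries because each library was sequenced in 2 runs that were summed. There were 4 groups of 3 libraries, and every group held 1 library from each of the same 3 animals, so the replicates are animals. Th17n cells with DFMO had 25 ng/ml IL-6, 2 ng/ml TGFb1 and 100 µM DFMO, and Th17n vehicle cells had both cytokines with vehicle. The iTreg cells with DFMO had 2 ng/ml TGFb1 and 100 µM DFMO, and iTreg vehicle cells had TGFb1 with vehicle. The 2 media therefore differ in IL-6, as far as the labels give them. All 4 groups came from naive spleen CD4 T cells (CD44- CD62L+ CD25-) of C57BL/6 mice labelled WT, activated on plates with antibodies against CD3 and CD28, harvested at 68 h and sorted for live cells. Th17n names non-pathogenic Th17 cells and iTreg names regulatory T cells induced in culture. These are cultures whose cells were not sorted for a lineage marker, so a level is a mean over all live cells. Fewer cells of a type and less RNA per cell cannot be told apart in such bulk samples.

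Polyamines (putrescine, spermidine and spermine) are small cations that growing cells make from ornithine. DFMO blocks ornithine decarboxylase, the first enzyme of the pathway, and cells answer a fall in polyamines through antizyme, antizyme inhibitor and S-adenosylmethionine decarboxylase. Spermidine is also the donor of hypusine, a modified residue that the translation factor eIF5A needs. In CD4 T cells TGF-beta can direct both the Foxp3 regulatory programme and, together with IL-6 acting through STAT3, the Th17 programme with IL-17. The 2 cultures set side by side here lie on either side of that choice.

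The libraries held 8307662 to 12594432 counts. Genes of CD4 T cells (10 listed) summed to 3340 to 3457 CPM in Th17n cells with DFMO and 3319 to 3467 CPM in vehicle Th17n cells. They summed to 2956 to 3402 CPM in iTreg cells with DFMO and 2669 to 2745 CPM in vehicle iTreg cells. CPM is the count over 1e+06 counts of the library after TMM scaling, which uses a factor per library to set the bulk of genes level. The factors were 1.07 to 1.09 in the 3 vehicle iTreg libraries and 0.957 to 0.999 in the other 9. The choice of scaling therefore bears on the size of every difference and on every count of calls given here. Of the genes listed for other cells, Blk (B cells), Ncr1 and Klrb1c (NK cells), Lyz2, S100a8, S100a9 and Tyrobp (myeloid cells) and Hbb-bs, Pf4 and Ppbp (red cells and platelets) had 0 counts in all 12 libraries. The B cell list summed to 4.49 to 8.61 CPM in Th17n cells with DFMO, 8.50 to 17.1 CPM in vehicle Th17n cells, 15.4 to 23.6 CPM in iTreg cells with DFMO and 13.9 to 16.01 CPM in vehicle iTreg cells. The NK list summed to 3.80 to 5.30 CPM in Th17n cells with DFMO, 8.58 to 9.95 CPM in vehicle Th17n cells, 10.2 to 11.7 CPM in iTreg cells with DFMO and 6.25 to 8.39 CPM in vehicle iTreg cells. Each of the 7 genes of the CD8 T cell list had counts. The CD8 list summed to 9.88 to 15.2 CPM in Th17n cells with DFMO and 15.3 to 22.1 CPM in vehicle Th17n cells. In iTreg cells it summed to 22.3 to 24.6 CPM with DFMO and 21.95 to 30.1 CPM with vehicle. The myeloid list was nearly all Cst3, which T cells also express. The part of these low sums in the results was not tested.

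Of 11526 genes tested, 628 (5.45%) had a higher and 768 (6.66%) a lower DFMO effect in Th17n than in iTreg at an adjusted p under 0.05. The test was edgeR's quasi-likelihood test with Benjamini-Hochberg adjustment over all genes. The median difference over all tested genes was 0.04 (log2), and that of the absolute difference over the 1396 called genes was 0.74. The absolute difference was at least 1 for 441 and at least 2 for 130. Within each cell type DFMO changed more genes. In Th17n 2626 genes (22.8%) rose and 2726 (23.7%) fell with DFMO, and in iTreg 2112 (18.3%) rose and 2217 (19.2%) fell. The split of the calls depends on the scaling. Without scaling factors 1509 genes were called higher and 450 lower, on log2(TPM + 1) with limma 2190 and 407, and on the same values centred on each library's median 534 and 1126. Without scaling factors iTreg alone had 1284 genes that rose and 3286 that fell, and with centred TPM 2885 and 1530. Left unscaled, the median difference over all genes was 0.21, and on log2(TPM + 1) it was 0.25, so each direction here is relative to the median gene. Counts were smaller with 2 animals: 153 higher and 235 lower without animal 1, 134 and 143 without animal 2, and 517 and 660 without animal 3.

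The 1396 called genes were sorted by their own calls in each cell type, which use the same libraries and are a description. In 126 genes DFMO acted in opposite directions: 40 rose in Th17n and fell in iTreg, and 86 fell in Th17n and rose in iTreg. A further 612 were called in Th17n alone (270 that rose, 342 that fell) and 339 in iTreg alone (188 that rose, 151 that fell). Another 302 moved the same way in both cell types by different amounts, with the larger effect in Th17n for 237 and in iTreg for 65. The remaining 17 were called in neither. Among all genes called in both cell types, whether or not the difference was called, 2832 moved the same way and 126 the opposite way. So among genes that answered DFMO in both cultures, a shared direction was the common case.

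**Figure D1:**
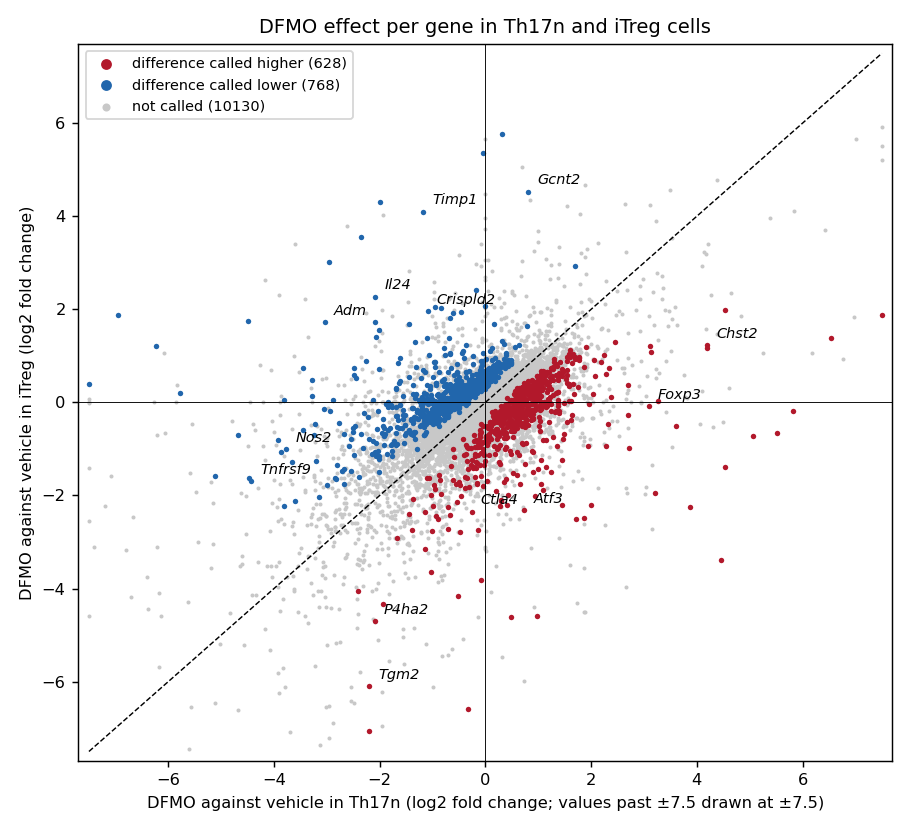
Log2 fold change of DFMO over vehicle in Th17n (horizontal axis) and in iTreg (vertical axis) for each of 11526 tested genes. Red points are the 628 genes with a higher and blue points the 768 with a lower effect in Th17n, grey points were not called, the dashed line marks equal effects, and values past 7.5 are drawn at the edge. Of the genes called in both cell types 2832 moved the same way, and Timp1, Il24, Crispld2 and Adm lie in the upper left quadrant, where DFMO lowered a gene in Th17n and raised it in iTreg.

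In the polyamine pathway itself, 4 of 21 tested genes had a higher DFMO effect in Th17n (5.45% of all genes) and 2 a lower one (6.66% of all genes), with a median difference of 0.02. There were 3, 2 and 5 higher and 1, 0 and 0 lower calls without animals 1, 2 and 3 in turn, and 4 to 5 higher and 0 to 2 lower under the other scalings. The gene of the enzyme DFMO blocks, Odc1 (chr12:17544794-17551505 on the plus strand, GRCm38), had 184, 184 and 206 CPM in Th17n cells with DFMO and 163, 173 and 165 CPM in vehicle Th17n cells. In iTreg cells it had 84, 112 and 133 CPM with DFMO and 151, 165 and 172 CPM with vehicle. The 3 iTreg libraries with DFMO lay below their vehicle ones, while the 3 Th17n libraries with DFMO lay above theirs. Odc1 fell in iTreg (-0.57 log2) and was not called in Th17n (0.20), a difference of 0.77 ± 0.19 (SE, adjusted p = 0.0133). Azin1, the antizyme inhibitor that frees ornithine decarboxylase from antizyme, had 239.6, 238 and 246 CPM in Th17n cells with DFMO against 67.4, 71.4 and 93.2 CPM with vehicle. Its levels in iTreg were 175, 191 and 182 CPM with DFMO and 110.4, 96.9 and 99.8 CPM with vehicle. Azin1 rose in both cell types with no overlap between DFMO and vehicle, and more in Th17n, by 0.80 ± 0.14 (SE, adjusted p = 0.000833). Slc7a1, which imports arginine, rose in Th17n (0.85) and was not called in iTreg (0.09), with a difference of 0.76 (adjusted p = 0.00222). Atp13a3, a transport ATPase that moves polyamines into cells, differed by 0.79 (adjusted p = 0.00881), with 65.5, 75.2 and 68 CPM in Th17n cells with DFMO and 36.5, 36.1 and 31.7 CPM in vehicle Th17n cells. With animal 1 left out, the test was missed by Atp13a3 (0.67, adjusted p = 0.137). With animal 2 left out, the test was missed by Odc1 (0.84, adjusted p = 0.12) and Atp13a3 (0.73, adjusted p = 0.134).

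Eif5a, the factor that carries hypusine, rose in both cell types, and less in Th17n. It had 3218, 3014 and 3050 CPM in Th17n cells with DFMO and 2345, 2300 and 2228 CPM in vehicle Th17n cells. Its iTreg levels were 3523, 3615 and 3455 CPM with DFMO and 2151, 1775 and 1737 CPM with vehicle. The DFMO and vehicle libraries did not overlap in either cell type, and the difference was -0.47 ± 0.10 (SE, adjusted p = 0.00405). Oaz1, the antizyme that targets ornithine decarboxylase for degradation, fell by 1.29 in Th17n and by 0.99 in iTreg. Its difference of -0.29 (adjusted p = 0.0497) lay at the threshold, and on log2(TPM + 1) it was 0.016. Other polyamine genes had no called difference. Amd1, which supplies the aminopropyl donor, rose by 1.82 in Th17n and 1.94 in iTreg, with a difference of -0.12 ± 0.12 (SE, adjusted p = 0.548). Oaz2 fell by 2.76 and 2.81, and Smox, the spermine oxidase, by 2.35 and 2.21, with differences of 0.05 (adjusted p = 0.913) and -0.14 (adjusted p = 0.84). Srm, the spermidine synthase, rose in Th17n (2.62) and was not called in iTreg (0.75). Its difference of 1.88 (adjusted p = 0.209) passed the test in the fit with animal as block (1.67, adjusted p = 0.0155) and without animal 3 (1.17, adjusted p = 0.0304). Animal 3 held the highest Srm level of each group, for example 239 CPM against 81.9 and 54.3 CPM in Th17n cells with DFMO. Sms, Sat1 and Dhps, which makes hypusine, differed by 0.00 (adjusted p = 0.994), 0.02 (adjusted p = 1) and 0.01 (adjusted p = 0.985). Sat1 read 23.9 to 34.1 CPM in the 4 libraries of animal 2 and 216 to 373 CPM in the 8 of animals 1 and 3, and its SE was 1.92. Without animal 1, the test was missed by Oaz1 (-0.26, adjusted p = 0.195). Without animal 2, the test was missed by Eif5a (-0.37, adjusted p = 0.186) and Oaz1 (-0.27, adjusted p = 0.28). With animal 3 left out, the test was missed by Eif5a (-0.44, adjusted p = 0.0506) and Oaz1 (-0.32, adjusted p = 0.152). Without scaling factors the call was lost for Oaz1 (-0.12, adjusted p = 0.381). On log2(TPM + 1) with limma the call was lost for Eif5a (-0.17, adjusted p = 0.205). In the 12 libraries alone the call was lost for Oaz1 (-0.27, adjusted p = 0.105). Without the filter on low counts the call was lost for Oaz1 (-0.28, adjusted p = 0.103). In run 1 alone the call was lost for Oaz1 (-0.30, adjusted p = 0.0578). In run 2 alone the call was lost for Oaz1 (-0.27, adjusted p = 0.0925).

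Foxp3, the transcription factor that defines regulatory T cells, had one of the 10 largest positive differences among called genes with a mean log2 CPM of at least 3 and the same sign in all 3 animals. The gene lies at chrX:7573644-7595245 on the plus strand, GRCm38. It had 100.5, 115 and 76.3 CPM in Th17n cells with DFMO, against 11.1, 11.2 and 11.8 CPM in vehicle Th17n cells. In iTreg it had 483, 476 and 274 CPM with DFMO and 516, 397 and 393 CPM with vehicle. Every Th17n library with DFMO lay above every vehicle one, whereas the iTreg groups overlapped, and Th17n cells with DFMO stayed below all iTreg libraries. The difference was 3.18 ± 0.44 (SE, adjusted p = 0.000751), made of 3.09 in Th17n and -0.08 in iTreg, and by animal it was 3.25, 3.08 and 3.19. Ctla4, an inhibitory receptor of regulatory and activated T cells, had 378, 313 and 576 CPM in Th17n cells with DFMO and 499.8, 461 and 558 CPM in vehicle Th17n cells. Its iTreg levels were 39, 42 and 41.3 CPM with DFMO and 189.6, 199 and 234 CPM with vehicle. Ctla4 fell in iTreg (-2.35) without overlap, overlapped in Th17n (-0.26, not called) and differed by 2.09 ± 0.24 (SE, adjusted p = 6.98e-05). Once animal 1 was removed, the test was missed by Foxp3 (3.13, adjusted p = 0.0741).

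The Treg list as a whole did not move one way: 4 of 23 tested members had a higher and 6 a lower DFMO effect in Th17n, against 5.45% and 6.66% of all genes, with a median of -0.04. Beside Foxp3 and Ctla4, the higher ones were Nrp1, a co-receptor for semaphorins, at 1.90 (adjusted p = 0.04) and Socs2, a feedback inhibitor of cytokine signalling, at 1.61 (adjusted p = 0.0209). Nrp1 had 72.7, 88.3 and 54.8 CPM in Th17n cells with DFMO against 10.4, 6.78 and 7.97 CPM with vehicle, and 359.9, 362 and 298 CPM in iTreg cells with DFMO against 187, 147 and 108 CPM with vehicle. It rose in both cell types, and more in Th17n. Among the lower ones was Tnfrsf9 (the co-stimulatory receptor 4-1BB), with 19.6, 30.2 and 43.2 CPM in Th17n cells with DFMO and 774, 584 and 659 CPM in vehicle Th17n cells. In iTreg Tnfrsf9 had 83.7, 99.6 and 91.2 CPM with DFMO and 224, 298 and 362 CPM with vehicle. It fell in both without overlap, by 4.43 in Th17n and 1.69 in iTreg, a difference of -2.74 ± 0.33 (SE, adjusted p = 0.000262). Its family member Tnfrsf18 (GITR) differed by -0.97 (adjusted p = 0.00926). Lrrc32, which presents latent TGF-beta at the surface, differed by -1.54 (adjusted p = 0.00115), Swap70 by -1.88 (adjusted p = 0.00117) and the transcription factor Ikzf4 by -0.88 (adjusted p = 0.00181). Itgae, the integrin chain CD103, differed by -2.99 (adjusted p = 0.0147) at 0.544 to 4.22 CPM. Il2ra, the high-affinity IL-2 receptor chain, had 1810, 1631 and 1457 CPM in Th17n cells with DFMO and 2026, 1801 and 1767 CPM in vehicle Th17n cells, and its difference was -0.04 (adjusted p = 0.905). Under the other scalings the list held 3 to 5 higher and 6 lower calls. Its median was 0.14 when libraries were left unscaled and 0.11 on log2(TPM + 1), below the medians of 0.21 and 0.25 over all genes. With DESeq2's size factors the list median was -0.05 and on centred TPM -0.20, against 0.02 and -0.05 over all genes. Without animals 1, 2 and 3 in turn it held 2, 2 and 2 higher and 3, 2 and 7 lower calls. When animal 1 was omitted, the test was missed by Nrp1 (1.90, adjusted p = 0.0625), Tnfrsf18 (-0.81, adjusted p = 0.0646), Ikzf4 (-0.84, adjusted p = 0.053) and Itgae (-2.77, adjusted p = 0.174). Once animal 2 was removed, the test was missed by Nrp1 (1.66, adjusted p = 0.333), Socs2 (1.46, adjusted p = 0.175), Tnfrsf9 (-2.75, adjusted p = 0.05), Tnfrsf18 (-0.89, adjusted p = 0.168), Lrrc32 (-1.47, adjusted p = 0.0819) and Itgae (-2.78, adjusted p = 0.197). Without animal 3, the test was missed by Nrp1 (2.12, adjusted p = 0.0601) and Socs2 (2.0, adjusted p = 0.0735).

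**Figure D2:**
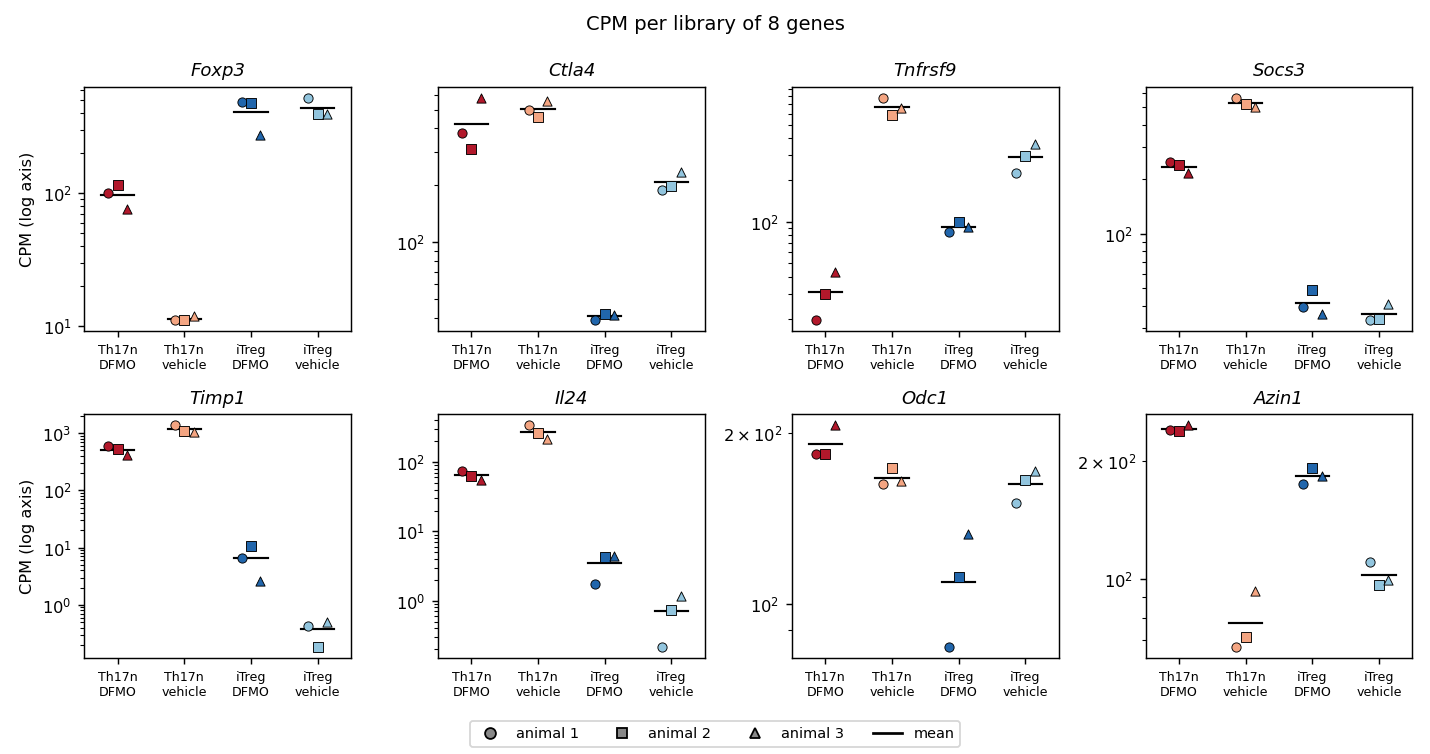
CPM on a log axis in each of the 12 libraries for 8 genes, with Th17n groups left of iTreg groups and DFMO left of vehicle. Symbols mark the 3 animals and bars the group means. Foxp3 lies at 76.3 to 114.9 CPM in Th17n cells with DFMO and 11.1 to 11.8 CPM in vehicle Th17n cells, while its iTreg groups overlap.

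Genes of the Th17 list gave 3 higher and 4 lower calls among 24, against 5.45% and 6.66% of all genes, with a median of -0.11. Without animals 1, 2 and 3 in turn there were 2, 1 and 2 higher and 3, 2 and 5 lower. Stat3, the transducer of IL-6, had 428, 494 and 483 CPM in Th17n cells with DFMO and 765, 739 and 724 CPM in vehicle Th17n cells, without overlap. Its iTreg groups overlapped at 339.9 to 412 CPM with DFMO and 295 to 389 CPM with vehicle, and the difference was -0.76 ± 0.13 (SE, adjusted p = 0.000751). Socs3, the feedback inhibitor that STAT3 induces, had 250.4, 238 and 216 CPM in Th17n cells with DFMO and 559, 521 and 503 CPM in vehicle Th17n cells. It had 35.9 to 48.9 CPM in iTreg cells with DFMO and 33.5 to 41.1 CPM in vehicle iTreg cells. Socs3 fell in Th17n (-1.17), was not called in iTreg (0.20) and differed by -1.37 ± 0.15 (SE, adjusted p = 5.69e-06). Batf, an activator that Th17 cells need, fell in iTreg (-1.09) and not in Th17n (-0.09), with a difference of 1.0 (adjusted p = 0.00102). Without scaling factors the list held 4 higher and 4 lower calls, and on log2(TPM + 1) 5 and 4. Among 16 targets of STAT3 and STAT5, 2 were higher and 4 lower, against the same 5.45% and 6.66% of all genes. The list of these targets shares Socs3, Socs2 and Il6st with other lists. That list had 1, 0 and 0 higher and 3, 2 and 3 lower calls without animals 1, 2 and 3 in turn, and 1 to 2 higher and 2 to 4 lower under the other scalings. Of these genes, Ptpn2, a phosphatase of JAK and STAT proteins, fell in both cell types and further in Th17n, with a difference of -0.69 (adjusted p = 0.000218). By limma on log2(TPM + 1) the call was lost for Stat3 (-0.46, adjusted p = 0.0573).

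Cytokines of the lineage were near 0 in iTreg, which limits what a difference can say. Il17a had 3526 counts in Th17n cells with DFMO and 6296 in vehicle Th17n cells, but 1 in iTreg cells with DFMO and 2 in vehicle iTreg cells, all over 3 libraries, so no fold is given for iTreg. In Th17n it had 83.9, 41.8 and 211 CPM with DFMO and 166, 226 and 251 CPM with vehicle, with overlap (log2 fold change -0.94, not called). Il21 had 474, 339.6 and 419 CPM in Th17n cells with DFMO and 248, 226 and 248 CPM in vehicle Th17n cells, and 2 counts in each iTreg group. Il21 rose in Th17n (0.77). Il10, which restrains inflammation, had 21.1, 25.2 and 10.1 CPM in Th17n cells with DFMO and 3.42, 2.19 and 1.58 CPM in vehicle Th17n cells, with 2 and 0 counts in the iTreg groups with DFMO and with vehicle. It rose by 2.98 in Th17n. Il17f had 520.5, 548 and 886 CPM in Th17n cells with DFMO and 855, 594 and 771 CPM in vehicle Th17n cells, which overlapped. In iTreg it had 4.47, 13.9 and 2.71 CPM with DFMO and 1.83, 0.644 and 1.6 CPM with vehicle, and every DFMO library was above every vehicle one. Il17f rose in iTreg (2.42) and differed by -2.61 ± 0.78 (SE, adjusted p = 0.0476). With the animal as a block its adjusted p was 0.0738. Maf, which drives Il10 and Il21, rose in iTreg (2.39) and was not called in Th17n (0.51), with a difference of -1.89 (adjusted p = 0.129) that was called without animal 3 (-2.66, adjusted p = 0.0032). Ahr, the aryl hydrocarbon receptor, differed by 0.46 (adjusted p = 0.479). Tbx21, the Th1 factor T-bet, fell in iTreg (-1.45) and differed by 1.72 (adjusted p = 0.0891). A fit with animal as block called it (1.75, adjusted p = 0.0411), and so did the fit without animal 3 (1.69, adjusted p = 0.0208). After removal of animal 1, the test was missed by Il17f (-2.79, adjusted p = 0.272). When animal 2 was omitted, the test was missed by Il17f (-1.22, adjusted p = 0.335). Fitted on the 12 libraries the call was lost for Il17f (-2.59, adjusted p = 0.103). With no filter on counts the call was lost for Il17f (-2.60, adjusted p = 0.068). From run 1 alone the call was lost for Il17f (-2.45, adjusted p = 0.082). From run 2 alone the call was lost for Il17f (-2.77, adjusted p = 0.0601).

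Among the genes with the largest differences under the same limits on level and animals, some fell in both cell types but by very different amounts. Tgm2, the tissue transglutaminase that can use polyamines as substrates, had 202, 248 and 205 CPM in Th17n cells with DFMO and 1157, 959.6 and 893 CPM in vehicle Th17n cells. Its iTreg libraries had 0.373, 0.581 and 0.436 CPM with DFMO, which is 15 counts over the 3 libraries, and 14.4, 32.3 and 52.4 CPM with vehicle. Tgm2 fell by 2.20 in Th17n and by 6.10 in iTreg, a difference of 3.90 ± 0.73 (SE, adjusted p = 0.00469). P4ha2, a collagen prolyl hydroxylase, followed the same pattern with a difference of 2.61 (adjusted p = 0.00308). Other genes were called in iTreg alone, where they fell. Atf3, a stress transcription factor, had 32.6 to 41.9 CPM in Th17n cells with DFMO and 22.3 to 24.1 CPM in vehicle Th17n cells, while iTreg cells with DFMO had 1.86, 4.9 and 8.9 CPM and vehicle iTreg cells 15.1, 25.3 and 40.2 CPM. Its difference was 3.06 ± 0.56 (SE, adjusted p = 0.00364). Gvin1, one of a family of near-identical large GTPase genes whose reads the counting may have split, differed by 2.40 (adjusted p = 0.0322). Others came from Th17n. Tead1, a factor of the Hippo pathway, had 13.5, 9.89 and 7.61 CPM in Th17n cells with DFMO and 0.855, 2.19 and 0.263 CPM in vehicle Th17n cells, while its iTreg levels of 25.9 to 33 CPM with DFMO and 25.5 to 32.1 CPM with vehicle overlapped. Its difference was 3.24 ± 0.61 (SE, adjusted p = 0.00221). Chst2, a sulfotransferase, rose by 4.20 in Th17n and 1.22 in iTreg, with a difference of 2.98 ± 0.33 (SE, adjusted p = 7.13e-06) and 35.8, 35.9 and 43.9 CPM in Th17n cells with DFMO against 1.59, 1.75 and 2.8 CPM with vehicle. Ccl3, an inflammatory chemokine, rose in both cell types and differed by 2.56 (adjusted p = 0.0444). With animal 1 left out, the threshold was missed by P4ha2 (2.66, adjusted p = 0.11), Gvin1 (2.74, adjusted p = 0.157), Tead1 (2.90, adjusted p = 0.113) and Ccl3 (2.27, adjusted p = 0.051). On the data without animal 2, the test was missed by Tgm2 (4.0, adjusted p = 0.148), Atf3 (3.02, adjusted p = 0.155), Gvin1 (2.11, adjusted p = 0.225) and Ccl3 (2.90, adjusted p = 0.257). Once animal 3 was removed, the test was missed by Tgm2 (3.30, adjusted p = 0.0622) and Gvin1 (2.37, adjusted p = 0.0818). In limma on log2(TPM + 1) the call was lost for Tgm2 (0.98, adjusted p = 0.0797). With centred TPM in limma the call was lost for Tgm2 (0.68, adjusted p = 0.231) and P4ha2 (0.57, adjusted p = 0.18). In the 12 libraries alone the call was lost for Gvin1 (2.42, adjusted p = 0.0504) and Ccl3 (2.58, adjusted p = 0.0665). Without the filter on low counts the call was lost for Ccl3 (2.56, adjusted p = 0.0791). In run 1 alone the call was lost for Ccl3 (2.17, adjusted p = 0.0966). In run 2 alone the call was lost for Gvin1 (2.39, adjusted p = 0.0868).

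The most negative difference of these was in Timp1, an inhibitor of metalloproteinases. The gene lies at chrX:20870166-20874735 on the plus strand, GRCm38. It had 595, 535 and 423 CPM in Th17n cells with DFMO and 1365, 1097 and 1035 CPM in vehicle Th17n cells. In iTreg it had 6.58, 10.5 and 2.62 CPM with DFMO and 0.43, 0.184 and 0.505 CPM with vehicle. Timp1 fell in Th17n and rose in iTreg, without overlap in either, and differed by -5.27 ± 0.78 (SE, adjusted p = 0.00117). Its iTreg level with DFMO was still far below any Th17n library. Il24, a cytokine of the IL-10 family, behaved alike, with 74.8, 62.6 and 55.8 CPM in Th17n cells with DFMO and 338, 263 and 218 CPM in vehicle Th17n cells. Its iTreg levels were 1.74, 4.32 and 4.45 CPM with DFMO and 0.215, 0.736 and 1.18 CPM with vehicle, and the difference was -4.36 ± 0.62 (SE, adjusted p = 0.000833). Crispld2, a secreted protein, had 69.8, 63.3 and 57.1 CPM in Th17n cells with DFMO and 149, 142 and 115 CPM in vehicle Th17n cells, while iTreg cells with DFMO had 18.1, 24.3 and 22 CPM and vehicle iTreg cells 2.26, 4.69 and 9.18 CPM. It too moved in opposite directions without overlap, with a difference of -3.06 ± 0.39 (SE, adjusted p = 0.000238). Cxcr5, the chemokine receptor of follicular helper cells, fell in Th17n (-1.32), rose in iTreg (1.29) and differed by -2.61 (adjusted p = 0.000233). Bend4 did the same at -2.53 (adjusted p = 1.44e-05). Gcnt2, a glycosyltransferase, with 5.67 to 19 CPM in iTreg cells with DFMO and 0 to 1.38 CPM in vehicle iTreg cells, rose in iTreg (4.53) and was not called in Th17n (0.81), with a difference of -3.72 (adjusted p = 0.0106). Nos2, the inducible nitric oxide synthase, had 1.61, 1.15 and 1.72 CPM in Th17n cells with DFMO and 23.1, 20 and 18 CPM in vehicle Th17n cells, while iTreg cells with DFMO had 9.07, 5.73 and 15.6 CPM and vehicle iTreg cells 19, 19.5 and 22.7 CPM. Nos2 fell in both cell types and further in Th17n, with a difference of -2.76 ± 0.49 (SE, adjusted p = 0.00103). Lrp1, an endocytic receptor, fell in Th17n (-1.65) and differed by -2.49 (adjusted p = 0.00136). Without animal 1, the threshold was missed by Timp1 (-5.35, adjusted p = 0.0503) and Gcnt2 (-3.08, adjusted p = 0.176). With animal 2 left out, the threshold was missed by Timp1 (-4.41, adjusted p = 0.0553), Il24 (-4.18, adjusted p = 0.0624), Crispld2 (-2.81, adjusted p = 0.0557) and Lrp1 (-2.56, adjusted p = 0.0859). On log2(TPM + 1) with limma the call was lost for Gcnt2 (-0.77, adjusted p = 0.0907).

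Among the 40 genes that rose in Th17n and fell in iTreg, the 5 largest differences after the same limits on level and animals were in Tgtp2, Ehd3, Trp53inp2, Tagap and Sgcb. Ehd3, which acts in endosome traffic, had 20.1, 25.2 and 24.9 CPM in Th17n cells with DFMO and 8.06, 10.2 and 9.37 CPM in vehicle Th17n cells. Its iTreg libraries held 10.2, 12.4 and 10.3 CPM with DFMO and 21.7, 25.7 and 15.9 CPM with vehicle. The groups did not overlap in either cell type, and the difference was 2.29 ± 0.30 (SE, adjusted p = 5.85e-05). Tagap, a GTPase-activating protein of activated T cells, had 69.4, 95.9 and 57.2 CPM in Th17n cells with DFMO and 40.8, 50.7 and 51.9 CPM in vehicle Th17n cells, while iTreg cells with DFMO had 37.4, 53 and 53 CPM and vehicle iTreg cells 114, 100.1 and 103 CPM. Its difference was 1.77 ± 0.24 (SE, adjusted p = 0.000124). Trp53inp2, which acts in autophagy, differed by 1.90 (adjusted p = 0.000472), and Sgcb, a sarcoglycan, by 1.66 (adjusted p = 0.00146). Tgtp2, an interferon-induced GTPase, differed by 2.69 (adjusted p = 0.0075), but it has a near-identical neighbour, Tgtp1, with which the counting may share reads. Once animal 1 was removed, the threshold was missed by Sgcb (1.40, adjusted p = 0.0668) and Tgtp2 (2.96, adjusted p = 0.11). Without animal 2, the threshold was missed by Tgtp2 (3.28, adjusted p = 0.0642).

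**Figure D3:**
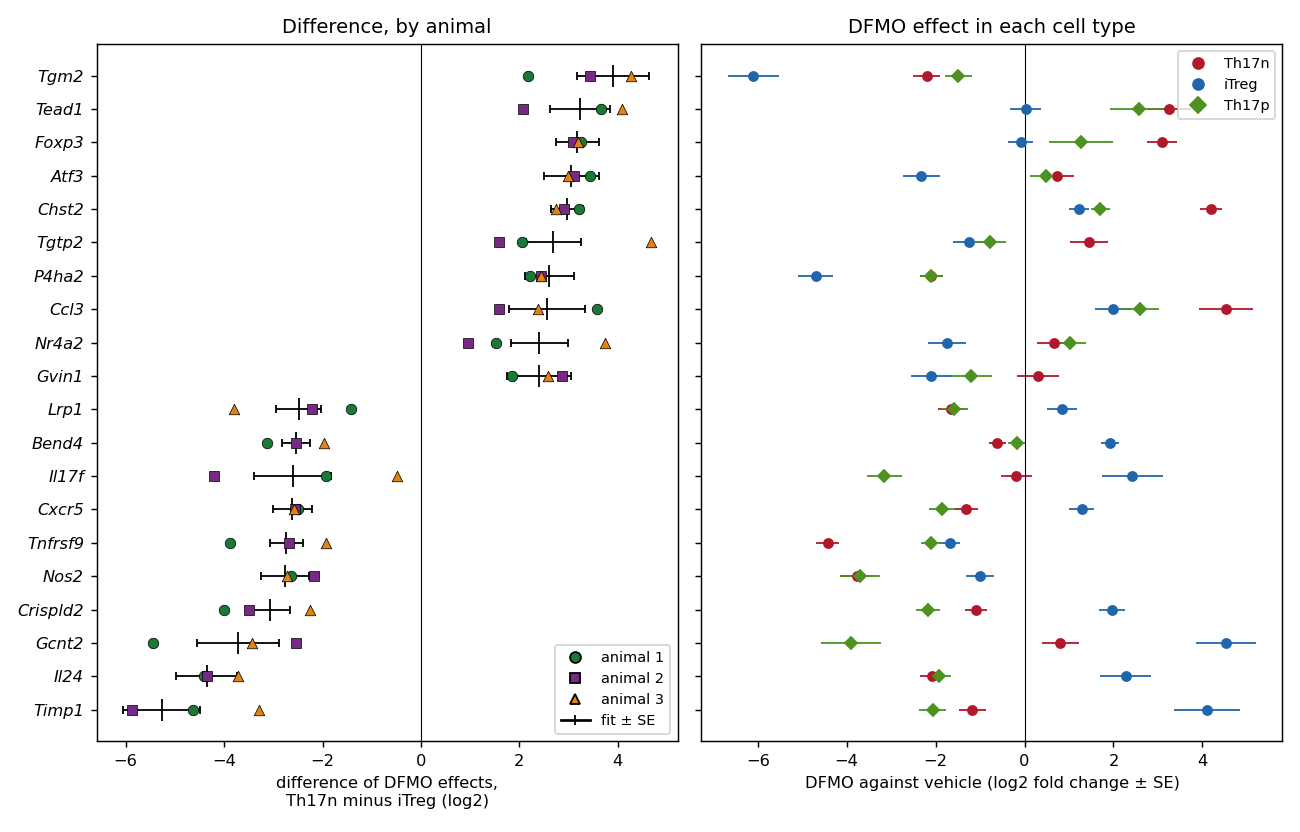
Left, the difference of DFMO effects (log2, Th17n minus iTreg) for the 10 genes with the largest positive and the 10 with the largest negative difference among called genes with a mean log2 CPM of at least 3 and the same sign in all 3 animals, with 1 symbol for each of the 3 animals and a bar for the fitted value with its SE. Right, the log2 fold change of DFMO over vehicle with its SE in Th17n, iTreg and Th17p. All 3 animals lie on the same side of 0 for each gene, as the choice of these genes required, and Timp1, Il24, Crispld2 and Cxcr5 have Th17n and iTreg effects on opposite sides of 0.

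Of 22 genes that T cell receptor signals switch on early, 4 had a higher DFMO effect in Th17n, against 5.45% of all genes, and 1 a lower one, with a median of 0.75. With animals 1, 2 and 3 left out in turn, 2, 2 and 4 were higher and 0, 0 and 1 lower. Cd69, an early activation marker, had 169, 153 and 156 CPM in Th17n cells with DFMO and 85, 97.4 and 92.3 CPM in vehicle Th17n cells. Its iTreg levels were 122, 135 and 143 CPM with DFMO and 165, 192 and 204 CPM with vehicle. Cd69 rose in Th17n and fell in iTreg, each without overlap, and differed by 1.29 ± 0.14 (SE, adjusted p = 5.49e-06). Il2, the growth factor of T cells, had 514, 377 and 668 CPM in Th17n cells with DFMO and 42.9, 68.3 and 66.7 CPM in vehicle Th17n cells, while iTreg cells with DFMO had 119.8, 164 and 173 CPM and vehicle iTreg cells 80.8, 47.5 and 87.5 CPM. It rose in both, and more in Th17n, by 2.04 ± 0.42 (SE, adjusted p = 0.00779). Fos and Nr4a2, 2 immediate early transcription factors, fell in iTreg (-1.99 and -1.75) and differed by 2.41 (adjusted p = 0.00855) and 2.41 (adjusted p = 0.0144). Ier3, an early gene that limits cell death, fell in both and further in Th17n, with a difference of -0.88 (adjusted p = 0.00605). With the animal as a block 8 members were higher and 1 lower, and under the other scalings 4 to 9 and 1. Myc, which T cells need for growth, rose in Th17n (0.31), was not called in iTreg (0.04) and differed by 0.27 (adjusted p = 0.155). Of 9 co-inhibitory receptors, 2 were higher (5.45% of all genes), Ctla4 and Btla. Btla had 233, 217 and 255 CPM in Th17n cells with DFMO and 141, 151 and 174 CPM in vehicle Th17n cells. Its difference was 0.59 (adjusted p = 0.0197). The co-inhibitory list had 1, 1 and 2 higher and 0, 0 and 0 lower calls without animals 1, 2 and 3 in turn. When animal 1 was omitted, the threshold was missed by Il2 (1.64, adjusted p = 0.155), Nr4a2 (2.73, adjusted p = 0.138), Ier3 (-0.61, adjusted p = 0.112) and Btla (0.57, adjusted p = 0.0744). Once animal 2 was removed, the threshold was missed by Fos (2.18, adjusted p = 0.155), Nr4a2 (2.93, adjusted p = 0.055), Ier3 (-0.82, adjusted p = 0.126) and Btla (0.58, adjusted p = 0.159). When animal 3 was omitted, the test was missed by Il2 (1.85, adjusted p = 0.106).

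Many interferon-stimulated genes fell with DFMO in both cultures. Of 37 listed, 21 fell in Th17n (23.7% of all genes fell there) and 30 fell in iTreg (19.2% of all genes). In the difference 8 were called higher (5.45% of all genes) and 0 lower (6.66% of all genes), with a median of 0.36. At an unadjusted p under 0.05, 3 were lower, and by DESeq2 1. Zbp1, a sensor of Z-form nucleic acid, had 24.8, 23.9 and 36.1 CPM in Th17n cells with DFMO and 26.7, 21.2 and 25.8 CPM in vehicle Th17n cells. In iTreg it had 13.4, 15.3 and 9.26 CPM with DFMO and 44.8, 41.9 and 55 CPM with vehicle. Zbp1 fell in iTreg without overlap (-1.90), overlapped in Th17n (0.20) and differed by 2.10 ± 0.26 (SE, adjusted p = 2.6e-05). Parp14, an ADP-ribosyltransferase, fell in both and further in iTreg, with a difference of 1.29 ± 0.19 (SE, adjusted p = 0.000238). Bst2, the tetherin that holds budding virus, had 86.7, 73.6 and 78 CPM in Th17n cells with DFMO and 131, 124 and 108 CPM in vehicle Th17n cells, while iTreg cells with DFMO had 65, 64.2 and 68.9 CPM and vehicle iTreg cells 174, 200.5 and 254 CPM. Its difference was 1.06 (adjusted p = 0.000286). Gbp2, a guanylate-binding protein, fell in iTreg (-1.69) and not in Th17n (0.03), with a difference of 1.72 (adjusted p = 0.0156). Parp9, Xaf1, Gbp4 and Iigp1 were the other 4 called higher, with Iigp1 at 0.997 to 4.5 CPM in Th17n cells with DFMO and 0.0876 to 0.244 CPM in vehicle Th17n cells. These 8 all fell in iTreg. In Th17n, Parp9, Parp14 and Bst2 also fell, Iigp1 rose, and the other 4 were not called. After removal of animal 1, the threshold was missed by Gbp2 (1.74, adjusted p = 0.121) and Gbp4 (1.21, adjusted p = 0.129). It was also missed there by Parp9 (0.51, adjusted p = 0.122) and Iigp1 (6.16, adjusted p = 0.096). Leaving out animal 2, it was missed by Xaf1 (1.07, adjusted p = 0.0505) and Gbp4 (1.52, adjusted p = 0.17). Dropping animal 3, the test was missed by Gbp2 (1.48, adjusted p = 0.19) and Gbp4 (1.17, adjusted p = 0.0806). Parp9 missed it there too (0.52, adjusted p = 0.122).

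The list turned on animal 3. Within animal 3 the difference was positive for 37 of 37 members with a median of 1.45, whereas within animals 1 and 2 it was positive for 20 and 19 with medians of 0.34 and 0.03. Over all tested genes the medians by animal were 0.01, 0.03 and 0.02. Without animal 3, 5 members were called higher (Zbp1, Parp14, Bst2, Xaf1 and Iigp1) and 7 lower (Irf7, Ifit3, Ifih1, Dhx58, Oas1a, Oasl2 and Samhd1). Without animals 1 and 2 in turn, 4 and 6 were higher. The iTreg library with DFMO of animal 3 had the lowest levels of several of these genes. Irf7, which amplifies the interferon response, had 20.6, 14.9 and 1.92 CPM in iTreg cells with DFMO and 71.3, 79.5 and 112 CPM in vehicle iTreg cells. It had 0.461, 0.706 and 0.453 CPM in Th17n cells with DFMO and 12.7, 14.5 and 11.7 CPM in vehicle Th17n cells. Its difference was -1.70 (adjusted p = 0.298) with 3 animals and -2.39 (adjusted p = 0.00134) without animal 3. Under the other scalings 8 to 17 members were called higher and 0 lower, with all 3 animals.

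Of the interferon genes called in the difference, Bst2 and Gbp2 were those whose RefSeq promoter held a match to the interferon-stimulated response element. The others had no RefSeq promoter or no match. The stretch of each promoter around a match is shown. Capitals mark every match to GAAANNGAA or, on the other strand, TTCNNTTTC, and those in Bst2 are 2 matches that overlap. The sequences are RefSeq promoters on GRCm38.p6, 5′ to 3′ on the strand of the gene, from chr8:71537568-71537616 on the minus strand for Bst2 and chr3:142620585-142620633 on the plus strand for Gbp2.
Bst2: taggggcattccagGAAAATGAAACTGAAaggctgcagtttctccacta
Gbp2: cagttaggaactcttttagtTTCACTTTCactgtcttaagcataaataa
The match nearer to the annotated start begins 124 bases before it in Bst2, and the match in Gbp2 begins 58 bases before. The window searched runs from 250 bases before to 50 after the start. Of 26 listed interferon genes with a RefSeq promoter, 16 held the element, and so did 2 of the 3 called in the difference. Xaf1 held none. Over all tested genes with a promoter (8828), 7.17% held it, against 6.60% of genes called higher (32 of 485) and 7.67% of genes called lower (45 of 587).

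Many genes of DNA replication rose with DFMO, several of them further in Th17n. In the S phase list 20 of 30 rose in Th17n (22.8% of all genes rose there) and 12 rose in iTreg (18.3%). The difference was called higher for 9 (5.45% of all genes) and lower for 0 (6.66% of all genes), with a median of 0.28. At an unadjusted p under 0.05, 0 were lower, and by DESeq2 0. Cdc6, which loads the replicative helicase, had 111, 127 and 116 CPM in Th17n cells with DFMO and 45.2, 42.9 and 48.5 CPM in vehicle Th17n cells. In iTreg its groups overlapped, at 78.5, 103 and 91.2 CPM with DFMO and 83.6, 73.5 and 76.2 CPM with vehicle, and the difference was 1.15 ± 0.14 (SE, adjusted p = 2.6e-05). Rrm2, a subunit of ribonucleotide reductase, had 642, 674 and 669 CPM in Th17n cells with DFMO and 218, 214 and 254 CPM in vehicle Th17n cells, while iTreg cells with DFMO had 608, 635 and 543 CPM and vehicle iTreg cells 524, 368 and 369 CPM. Both cell types rose without overlap, Th17n further, by 1.03 ± 0.15 (SE, adjusted p = 0.000206). Without animals 1, 2 and 3 in turn, 3, 5 and 6 of the list were called higher, and under the other scalings 7 to 18. Of 30 genes of G2 and M phase 1 was higher and 0 lower (5.45% and 6.66% of all genes). There were 0, 0 and 1 calls without animals 1, 2 and 3 in turn, and 1 to 6 higher and 0 lower under the other scalings. The called gene was Mki67, which fell in iTreg (-0.43) and differed by 0.61 (adjusted p = 0.00565). Cdkn1a, the inhibitor p21, fell in Th17n (-0.83) and differed by -0.60 (adjusted p = 0.23). Of 24 p53 targets 1 was higher and 0 lower, against the same shares of all genes (1 to 4 higher and 0 to 2 lower under the other scalings). That 1 was Pmaip1 (Noxa), which fell in iTreg (-1.85) and differed by 1.47 (adjusted p = 0.00261). With animal 1 left out, no call was made for Mki67 (0.53, adjusted p = 0.0603). When animal 2 was omitted, the threshold was missed by Mki67 (0.52, adjusted p = 0.109) and Pmaip1 (1.39, adjusted p = 0.0658).

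Most ribosome biogenesis genes rose with DFMO in both cultures, 22 of 25 in each (22.8% of all genes in Th17n and 18.3% in iTreg). Of the 25, 6 had a higher difference (5.45% of all genes), 1 a lower one (Npm1, at -0.36 and adjusted p = 0.0143), and the median difference was 0.34. Nolc1, a nucleolar chaperone, had 335, 340.3 and 314 CPM in Th17n cells with DFMO and 113, 122 and 124 CPM in vehicle Th17n cells. The iTreg levels were 309, 359 and 378 CPM with DFMO and 241, 204 and 216 CPM with vehicle. Vehicle levels were lower in Th17n than in iTreg and levels with DFMO overlapped between them, with a difference of 0.80 ± 0.13 (SE, adjusted p = 0.000446). Nop56, a component of small nucleolar ribonucleoproteins, did the same at 0.74 (adjusted p = 0.000549), with 608, 557 and 521 CPM in Th17n cells with DFMO and 213, 206 and 251 CPM in vehicle Th17n cells. The list medians within animals 1, 2 and 3 were 0.65, 0.31 and 0.03, and 2, 3 and 6 were called higher without each in turn. Under the other scalings 5 to 17 higher and 0 to 1 lower calls were made. Without animal 1, no call was made for Npm1 (-0.40, adjusted p = 0.0787). On the data without animal 2, the threshold was missed by Npm1 (-0.33, adjusted p = 0.167). With animal 3 left out, the threshold was missed by Npm1 (-0.34, adjusted p = 0.0991).

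Several chaperones of the endoplasmic reticulum had higher DFMO effects in Th17n. In the unfolded protein response list 11 of 19 rose in Th17n (22.8% of all genes rose there) and 10 fell in iTreg (19.2% of all genes). In the difference 7 were called higher (5.45% of all genes) and 0 lower (0 lower at an unadjusted p under 0.05 and 0 by DESeq2), with a median of 0.40. Hsp90b1, the chaperone GRP94, had 919, 805 and 835 CPM in Th17n cells with DFMO and 752, 759 and 748 CPM in vehicle Th17n cells, while iTreg cells with DFMO had 512, 546 and 544 CPM and vehicle iTreg cells 658, 669.5 and 706 CPM. It rose in Th17n and fell in iTreg without overlap, with a difference of 0.52 ± 0.09 (SE, adjusted p = 0.000899). Manf, a secreted reticulum protein, had 154, 134 and 140.3 CPM in Th17n cells with DFMO and 112, 113 and 114 CPM in vehicle Th17n cells, while iTreg cells with DFMO had 85.5, 80.6 and 98.8 CPM and vehicle iTreg cells 114, 115 and 123 CPM. Its difference was 0.75 ± 0.13 (SE, adjusted p = 0.000847). The list medians within the 3 animals were 0.27, 0.41 and 0.45, and 3, 3 and 5 members were called without animals 1, 2 and 3 in turn. Under the other scalings 6 to 15 were higher. In the amino acid response list, targets of the transcription factor ATF4, 5 of 29 were higher and 1 lower. Of all genes 5.45% were higher and 6.66% lower. The median of the amino acid response list was 0.06, against 0.04 over all genes. This list had 4, 1 and 6 higher and 0, 0 and 1 lower calls without animals 1, 2 and 3 in turn, and 4 to 8 higher and 0 to 2 lower under the other scalings. Trib3, a pseudokinase, had 19.4, 32.9 and 24.7 CPM in Th17n cells with DFMO and 43.8, 55.4 and 55.7 CPM in vehicle Th17n cells, while iTreg cells with DFMO had 7.08, 8.13 and 13.9 CPM and vehicle iTreg cells 57, 71.6 and 69.7 CPM. Trib3 fell in both, further in iTreg, with a difference of 1.75 ± 0.31 (SE, adjusted p = 0.00157). Wars, the tryptophan tRNA synthetase, rose in Th17n (0.46) and differed by 0.58 (adjusted p = 0.00117). With animal 2 left out, no call was made for Trib3 (1.41, adjusted p = 0.0638).

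The call counts of 2 lists of fuel metabolism genes depended on the scaling. In the TCA cycle list 2 of 23 were higher and 7 lower (5.45% and 6.66% of all genes), with a median of -0.19. With libraries left unscaled 2 and 2 were called, and on log2(TPM + 1) 3 and 0. With DESeq2's size factors the list held 2 and 8, and on centred TPM also 2 and 8. Its median was -0.02 in unscaled libraries and 0.11 on log2(TPM + 1), below the medians of 0.21 and 0.25 over all genes. On centred TPM the list median was -0.19, against -0.05 over all genes. Mdh1, the cytosolic malate dehydrogenase, had 229, 249.8 and 248 CPM in Th17n cells with DFMO and 347, 344 and 333 CPM in vehicle Th17n cells, while its iTreg libraries lay at 260.5 to 266 CPM with DFMO and 251 to 264 CPM with vehicle. Its difference was -0.51 ± 0.10 (SE, adjusted p = 0.00181). Sdha, a subunit of succinate dehydrogenase, had 509, 546 and 545 CPM in Th17n cells with DFMO and 477, 459 and 514 CPM in vehicle Th17n cells, while iTreg cells with DFMO had 768, 810.1 and 677 CPM and vehicle iTreg cells 469, 451 and 468 CPM. It rose in iTreg, was not called in Th17n (0.14) and differed by -0.56 ± 0.11 (SE, adjusted p = 0.00206). Fatty acid oxidation gave 1 higher and 4 lower of 18, with a median of -0.14, but 2 and 1 in unscaled libraries, and 3 and 0 with log2(TPM + 1). With DESeq2's size factors it gave 1 and 4, and on centred TPM 1 and 5. The fatty acid oxidation medians were 0.04 unscaled, 0.16 on log2(TPM + 1) and -0.15 on centred TPM. Each lay below the median over all genes in the same setting. Hadh fell in Th17n (-0.82) and differed by -0.66 (adjusted p = 0.00175), and Hadha, the trifunctional protein subunit, rose in iTreg (0.30) and differed by -0.49 (adjusted p = 0.0105). Without animals 1, 2 and 3 in turn the TCA list had 1, 1 and 3 lower calls, and fatty acid oxidation 1, 0 and 4. Once animal 1 was removed, no call was made for Sdha (-0.52, adjusted p = 0.0562) and Hadha (-0.50, adjusted p = 0.105). Without animal 2, no call was made for Sdha (-0.52, adjusted p = 0.0639), Hadh (-0.67, adjusted p = 0.0559) and Hadha (-0.36, adjusted p = 0.175). Left unscaled the call was lost for Hadha (-0.32, adjusted p = 0.0825). By limma on log2(TPM + 1) the call was lost for Mdh1 (-0.21, adjusted p = 0.149), Sdha (-0.25, adjusted p = 0.192), Hadh (-0.35, adjusted p = 0.0756) and Hadha (-0.18, adjusted p = 0.435).

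Most glycolysis genes fell with DFMO in both cultures, 16 of 21 in Th17n (23.7% of all genes fell there) and 19 in iTreg (19.2%). In the difference 0 were lower and 1 was higher (6.66% and 5.45% of all genes). This was Ldha, lactate dehydrogenase, with 4952, 5127 and 5665 CPM in Th17n cells with DFMO and 6968, 6889 and 7168 CPM in vehicle Th17n cells, while iTreg cells with DFMO had 3026, 3634 and 4044 CPM and vehicle iTreg cells 6720, 5934 and 5810 CPM. Ldha fell further in iTreg, with a difference of 0.37 ± 0.12 (SE, adjusted p = 0.045). The list held 0, 0 and 10 higher calls without animals 1, 2 and 3 in turn, and under the other scalings 0 to 10 higher and 0 to 1 lower. Hypoxia genes fell too, 14 of 22 in Th17n and 17 in iTreg, set against the same 23.7% and 19.2%, with 3 higher and 1 lower in the difference (5.45% and 6.66% of all genes). Without animals 1, 2 and 3 in turn that list held 0, 1 and 7 higher and 1, 1 and 2 lower, and 2 to 8 higher and 1 to 2 lower under the other scalings. The lower 1 was Adm, the peptide adrenomedullin, with 1.38, 0.706 and 0.997 CPM in Th17n cells with DFMO and 9.77, 8.42 and 6.92 CPM in vehicle Th17n cells, while iTreg cells with DFMO had 31.9, 25.2 and 43.1 CPM and vehicle iTreg cells 10.01, 13.2 and 7.16 CPM. Adm fell in Th17n and rose in iTreg without overlap, with a difference of -4.75 ± 0.47 (SE, adjusted p = 2.32e-06). Bnip3, a mitophagy receptor, fell by 2.41 in Th17n and 4.05 in iTreg and differed by 1.64 (adjusted p = 0.0299). Of 22 cholesterol synthesis genes, 6 fell in Th17n (23.7% of all genes) and 12 fell in iTreg (19.2%), and 3 were called higher in the difference (5.45%), among them Sc5d at 1.02 (adjusted p = 0.00815) and Dhcr7 at 0.83 (adjusted p = 0.0276). The animals differed here. The difference was positive for 22 of 22 members in animal 1 and in animal 2, with medians of 1.19 and 0.83, and for 7 of 22 in animal 3, with a median of -0.13. Without animal 3, 9 members were called higher, and without animals 1 and 2 in turn 0 and 0 (9 with 3 animals at an unadjusted p under 0.05, and 6 by DESeq2). A fit with animal as block gave 6, and the other scalings 3 to 12 higher and 0 lower. When animal 1 was omitted, no call was made for Ldha (0.24, adjusted p = 0.261), Bnip3 (1.5, adjusted p = 0.233), Sc5d (0.68, adjusted p = 0.0562) and Dhcr7 (0.51, adjusted p = 0.391). Once animal 2 was removed, no call was made for Ldha (0.43, adjusted p = 0.222), Bnip3 (1.33, adjusted p = 0.286), Sc5d (1.16, adjusted p = 0.0639) and Dhcr7 (0.75, adjusted p = 0.197). By limma on centred TPM the call was lost for Ldha (0.37, adjusted p = 0.0665). With DESeq2's size factors the call was lost for Ldha (0.36, adjusted p = 0.0518). Fitted on the 12 libraries the call was lost for Ldha (0.39, adjusted p = 0.0685). From run 1 alone the call was lost for Ldha (0.36, adjusted p = 0.0506).

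**Figure D4:**
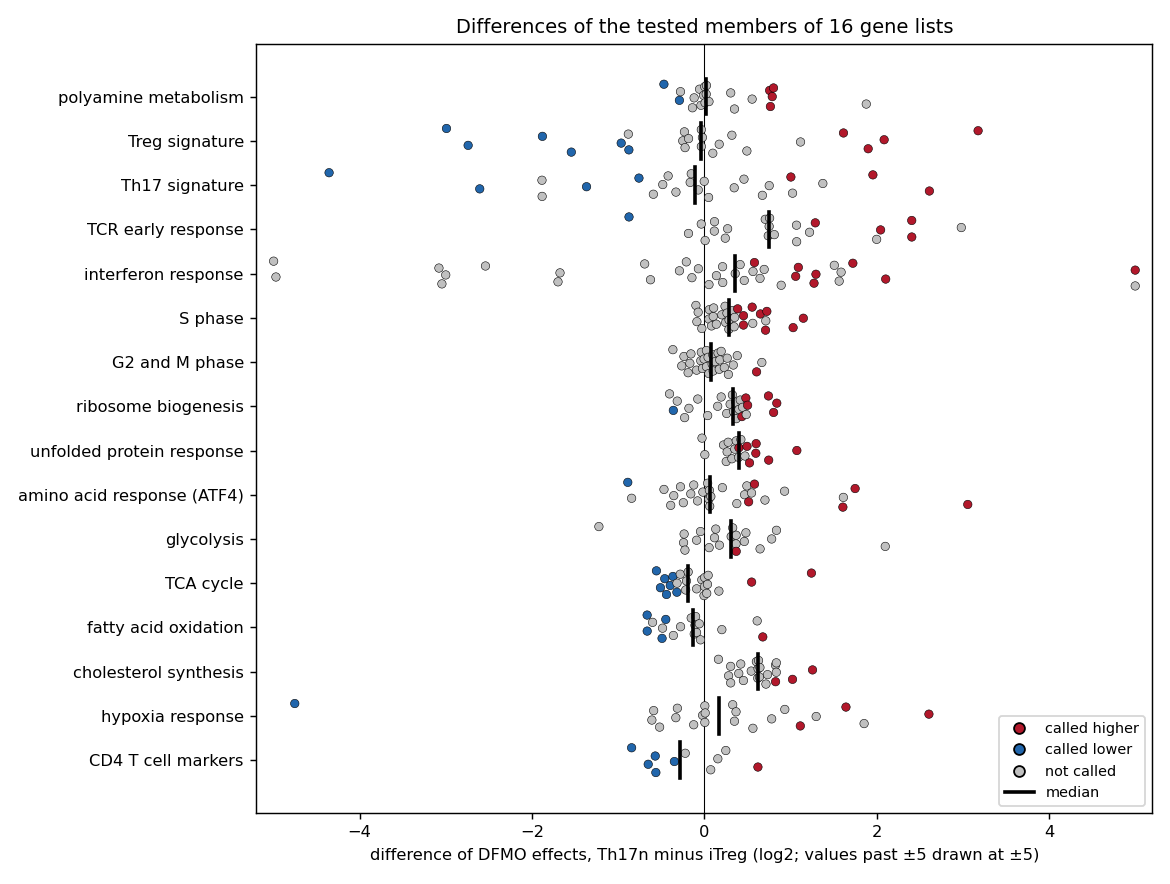
Difference of DFMO effects (log2, Th17n minus iTreg) of each tested member of 16 gene lists, 1 point a gene, red if called higher, blue if called lower and grey if not called, with a black bar at the median. Unfolded protein response, S phase and cholesterol synthesis members lie mostly right of 0, with medians of 0.40, 0.28 and 0.63, and TCA cycle members mostly left, with a median of -0.19.

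**Figure D5:**
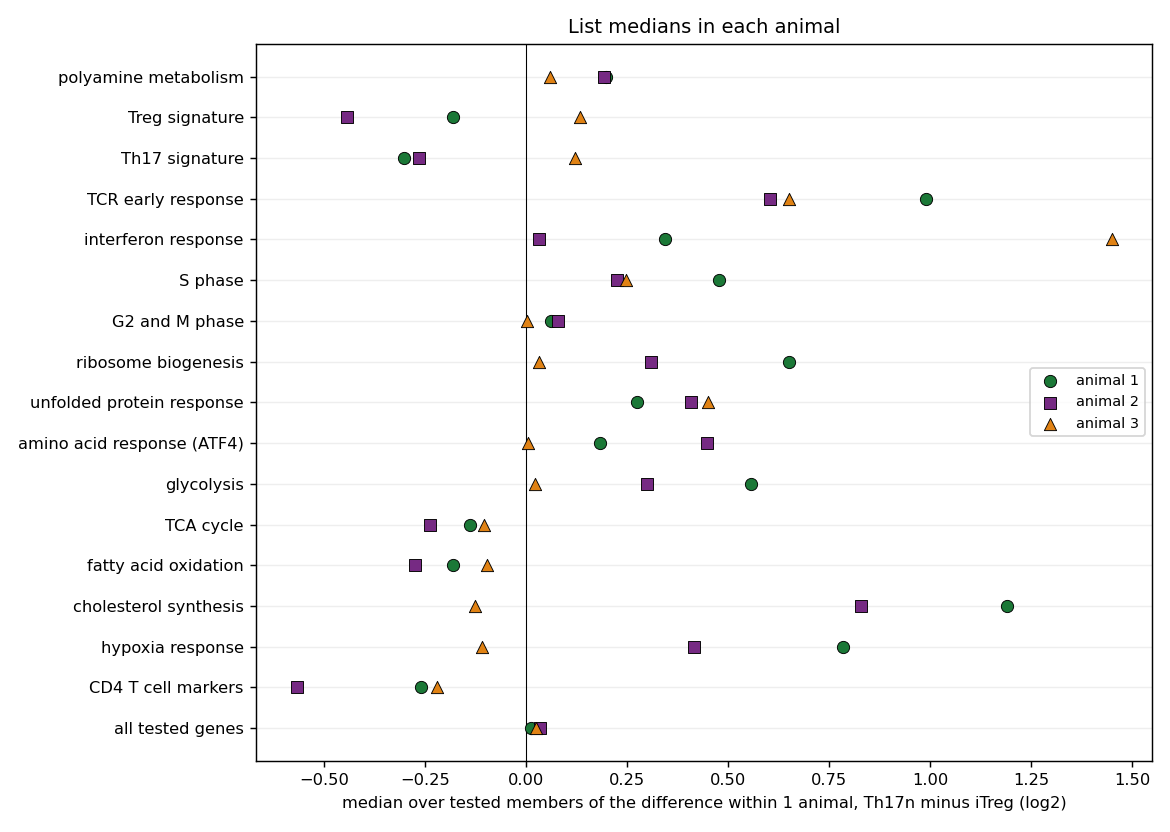
Median over the tested members of 16 lists of the difference computed within each of the 3 animals (log2, Th17n minus iTreg), with all tested genes in the bottom row. Animal 3 stands at 1.45 for interferon response against 0.34 and 0.03, and at -0.13 for cholesterol synthesis against 1.19 and 0.83.

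Lists for other helper programmes, receptors and cytokines are set against the 5.45% of all genes called higher and 6.66% called lower. Of 12 Th1 genes 1 was lower, Cxcr3, a chemokine receptor, which fell in Th17n (-1.53) and differed by -1.27 (adjusted p = 0.00689). Of 8 Th2 genes 3 were lower: Il24, Ccr4 at -0.58 (adjusted p = 0.0115) and Il4ra, the IL-4 receptor chain, which fell in Th17n (-0.26), rose in iTreg (0.29) and differed by -0.55 (adjusted p = 0.00899). Of 15 pathogenic Th17 genes 1 was higher (Ccl3) and 1 lower, Lgals3, a galectin, at -1.42 (adjusted p = 0.0176). Of 9 non-pathogenic Th17 genes 1 was higher, Il6st, the gp130 chain through which IL-6 signals, at 0.84 (adjusted p = 0.0369). TGF-beta response genes gave 1 higher, Nedd9 at 0.58 (adjusted p = 0.0443), and 1 lower (Itgae) of 21. Naive and memory genes gave 1 lower of 15, Satb1, a chromatin organiser, which fell in both and further in Th17n, at -0.60 (adjusted p = 0.0197). Chemokines and their receptors gave 2 higher and 3 lower of 23, among them Cxcl10, which had 31 counts in Th17n cells with DFMO and 37 in vehicle Th17n cells. Its iTreg counts were 0 with DFMO and 38 with vehicle, at least 14.0-fold lower against a floor of 3 counts over the group, and 1 of the 3 vehicle libraries also had 0. Of 28 cytokine receptors 1 was higher and 4 lower, with Il21r rising in iTreg (0.49), falling in Th17n (-0.28) and differing by -0.77 (adjusted p = 0.00168). Of 25 cytokines 3 were higher and 3 lower, with Areg at 17 counts in Th17n cells with DFMO and 0 in vehicle Th17n cells, at least 5.28-fold higher against the same floor, and Tnfsf14 (LIGHT) falling in Th17n (-0.94), rising in iTreg (0.42) and differing by -1.36 (adjusted p = 0.00054). With animal as block, the pathogenic Th17 list held 3 higher and 1 lower, Th1 1 and 1, the naive and memory list 0 and 2, G2 and M phase 2 and 1, p53 1 and 2, amino acid response 6 and 3, glycolysis 3 and 1, hypoxia 3 and 2, fatty acid oxidation 2 and 5, and lysosome and autophagy 3 and 2. After removal of animal 1, no call was made for Areg (5.98, adjusted p = 0.143), Cxcr3 (-1.04, adjusted p = 0.134), Ccr4 (-0.64, adjusted p = 0.0633), Lgals3 (-1.25, adjusted p = 0.1), Il6st (0.87, adjusted p = 0.157), Nedd9 (0.51, adjusted p = 0.207) and Satb1 (-0.39, adjusted p = 0.321). When animal 2 was omitted, no call was made for Cxcl10 (6.11, adjusted p = 0.183), Areg (8.14, adjusted p = 0.0893), Cxcr3 (-1.27, adjusted p = 0.0559), Ccr4 (-0.49, adjusted p = 0.129), Il4ra (-0.50, adjusted p = 0.141), Lgals3 (-1.40, adjusted p = 0.188), Il6st (0.94, adjusted p = 0.175), Nedd9 (0.60, adjusted p = 0.223), Satb1 (-0.62, adjusted p = 0.104) and Il21r (-0.75, adjusted p = 0.0783). Without animal 3, the threshold was missed by Cxcl10 (5.52, adjusted p = 0.166), Areg (4.42, adjusted p = 0.283), Il6st (0.72, adjusted p = 0.0875) and Nedd9 (0.65, adjusted p = 0.06). Without scaling factors the call was lost for Satb1 (-0.43, adjusted p = 0.0712). In limma on log2(TPM + 1) the call was lost for Il4ra (-0.25, adjusted p = 0.228) and Satb1 (-0.43, adjusted p = 0.0828). With centred TPM in limma the call was lost for Il6st (0.65, adjusted p = 0.065) and Nedd9 (0.48, adjusted p = 0.076). In the 12 libraries alone the call was lost for Nedd9 (0.60, adjusted p = 0.0576). In run 1 alone the call was lost for Lgals3 (-1.19, adjusted p = 0.0597) and Nedd9 (0.56, adjusted p = 0.0712). From run 2 alone the call was lost for Il6st (0.80, adjusted p = 0.0787) and Nedd9 (0.61, adjusted p = 0.0635).

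In the list of histone demethylases and polycomb genes 2 of 20 were higher and 2 lower (5.45% and 6.66% of all genes). Kdm1a (LSD1) fell in iTreg (-0.78) and differed by 1.0 (adjusted p = 0.00933), and Ezh1 fell in Th17n (-1.0) and differed by -0.79 (adjusted p = 0.0138). Kdm6b, a demethylase of the polycomb mark, had 46.7 to 49.1 CPM in Th17n cells with DFMO and 45.2 to 51 CPM in vehicle Th17n cells, and differed by -0.18 ± 0.19 (SE, adjusted p = 0.577). Of 31 lysosome and autophagy genes 2 were higher and 1 lower, against the same 5.45% and 6.66% of all genes. The higher ones were Lamp1, a lysosomal membrane protein, at 1.2 (adjusted p = 0.00413), and Ctsl, a protease, at 0.91 (adjusted p = 0.0156). The lower 1 was Gabarap, of the autophagosome, at -0.67 (adjusted p = 0.00323). Among the 10 CD4 T cell genes, 1 was higher and 5 lower (5.45% and 6.66% of all genes), with a median of -0.29. Cd3g, a chain of the receptor complex, had 128, 125 and 156 CPM in Th17n cells with DFMO and 216, 205 and 184 CPM in vehicle Th17n cells, while iTreg cells with DFMO had 252, 230.2 and 216 CPM and vehicle iTreg cells 187, 196 and 192 CPM. Its difference was -0.85 ± 0.15 (SE, adjusted p = 0.00097), and that of Cd3d was -0.65 (adjusted p = 0.00124). Without scaling factors this list had 3 higher and 4 lower calls, and on log2(TPM + 1) 3 and 1. With DESeq2's size factors it had 1 and 5, and on centred TPM 1 and 4. It had 0, 0 and 1 higher and 3, 1 and 4 lower calls without animals 1, 2 and 3 in turn. Markers of other cells with a called difference were 4 genes at low levels. Cd79b, a chain of the B cell receptor, differed by -2.0 (adjusted p = 0.00589), at 1.04 to 2.47 CPM in Th17n cells with DFMO and 4.38 to 7.87 CPM in vehicle Th17n cells. Kit differed by -4.18 (adjusted p = 0.0479) and Cd68 by -3.22 (adjusted p = 0.0157), and they lay at 0 to 8.72 and 0.323 to 4.38 CPM over the 12 libraries. Prf1, the pore protein of cytotoxic cells, had 3 counts in Th17n cells with DFMO and 24 in vehicle Th17n cells, a ratio of 0.116 (exact 95% interval 0.0224 to 0.383). Its counts in iTreg were 18 with DFMO and 2 with vehicle, a ratio of 8.14 (1.95 to 72.4). These intervals cover counting error only. The fitted difference of Prf1 was -5.98 (adjusted p = 0.0172). With animal 1 left out, the test was missed by Kdm1a (0.86, adjusted p = 0.123), Ezh1 (-0.57, adjusted p = 0.209), Lamp1 (1.01, adjusted p = 0.061), Gabarap (-0.56, adjusted p = 0.081), Cd79b (-1.40, adjusted p = 0.172), Kit (-3.51, adjusted p = 0.172), Cd68 (-2.29, adjusted p = 0.206) and Prf1 (-4.77, adjusted p = 0.157). On the data without animal 2, no call was made for Kdm1a (0.83, adjusted p = 0.197), Ezh1 (-0.86, adjusted p = 0.0929), Lamp1 (1.25, adjusted p = 0.0626), Ctsl (0.92, adjusted p = 0.165), Gabarap (-0.53, adjusted p = 0.152), Cd3d (-0.50, adjusted p = 0.077), Cd79b (-2.04, adjusted p = 0.0783), Kit (-7.75, adjusted p = 0.0656), Cd68 (-3.98, adjusted p = 0.0723) and Prf1 (-9.07, adjusted p = 0.0679). Once animal 3 was removed, the threshold was missed by Ctsl (0.79, adjusted p = 0.116), Kit (-3.72, adjusted p = 0.168), Cd68 (-3.33, adjusted p = 0.0829) and Prf1 (-7.68, adjusted p = 0.0538). Left unscaled the call was lost for Ezh1 (-0.62, adjusted p = 0.05). On log2(TPM + 1) with limma the call was lost for Ezh1 (-0.46, adjusted p = 0.154), Cd3d (-0.34, adjusted p = 0.0565) and Prf1 (-0.69, adjusted p = 0.0788). With no filter on counts the call was lost for Kit (-4.17, adjusted p = 0.101). From run 1 alone the call was lost for Kdm1a (0.62, adjusted p = 0.098) and Ezh1 (-0.64, adjusted p = 0.0556). In run 2 alone the call was lost for Kit (-3.61, adjusted p = 0.0594) and Cd68 (-2.96, adjusted p = 0.0666).

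The counts of these smaller lists moved with the animals and the scaling. The Th2 list had 0, 0 and 0 higher and 2, 0 and 4 lower calls without animals 1, 2 and 3 in turn, and 0 higher and 1 to 3 lower under the other scalings. Th1 genes had 0, 0 and 1 higher and 0, 0 and 1 lower calls without animals 1, 2 and 3 in turn, and 0 to 2 higher and 1 lower by scaling. For pathogenic Th17 genes there were 1, 0 and 2 higher and 0, 0 and 1 lower calls without animals 1, 2 and 3 in turn, with 1 to 5 higher and 1 to 3 lower by scaling, and for non-pathogenic ones 0, 0 and 0 higher and 0, 0 and 1 lower calls without animals 1, 2 and 3 in turn, with 1 to 3 higher and 0 to 1 lower. TGF-beta response genes had 0, 0 and 0 higher and 0, 0 and 1 lower calls without animals 1, 2 and 3 in turn, and 0 to 2 higher and 1 to 3 lower by scaling. Naive and memory genes had 0, 0 and 0 higher and 0, 0 and 3 lower calls without animals 1, 2 and 3 in turn, and 0 to 1 higher and 0 to 1 lower by scaling. Chemokines and their receptors had 2, 0 and 1 higher and 1, 1 and 5 lower calls without animals 1, 2 and 3 in turn, and 2 to 3 higher and 2 to 6 lower by scaling. Cytokine receptors had 0, 0 and 0 higher and 2, 0 and 4 lower calls without animals 1, 2 and 3 in turn, and 0 to 3 higher and 2 to 6 lower by scaling. Cytokines had 0, 1 and 0 higher and 2, 1 and 3 lower calls without animals 1, 2 and 3 in turn, and 3 to 4 higher and 3 to 5 lower by scaling. Histone demethylases and polycomb genes had 0, 0 and 2 higher and 0, 0 and 1 lower calls without animals 1, 2 and 3 in turn, and 2 to 5 higher and 0 to 2 lower by scaling. Lysosome and autophagy genes had 1, 0 and 1 higher and 0, 0 and 1 lower calls without animals 1, 2 and 3 in turn, and 2 to 5 higher and 1 lower by scaling.

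Th17p cells (pathogenic Th17, grown with 25 ng/ml IL-6, 20 ng/ml IL-1b and 20 ng/ml IL-23 and no added TGFb1) are outside the contrast, and DFMO in them raised 1827 genes (15.9%) and lowered 1970 (17.1%). For the 628 genes with a higher effect in Th17n, the median DFMO effect was 0.68 in Th17n, 0.29 in Th17p and -0.18 in iTreg. Of these, 264 rose and 68 fell in Th17p, and 321 (51.11%) had a Th17p effect nearer to the Th17n than to the iTreg one. For the 768 genes with a lower effect the medians were -0.63 in Th17n, -0.27 in Th17p and 0.17 in iTreg, with 358 that fell and 76 that rose in Th17p. Of those, 405 (52.73%) were nearer to Th17n, and of all tested genes 53.5%, so both shares lay close to the background. Nos2 fell in Th17p (-3.69) and in Th17n (-3.76), Timp1 and Il24 fell in Th17p (-2.07 and -1.93), and Cxcr5 fell by 1.85. Foxp3 had a Th17p effect of 1.27 that was not called. Il17f fell by 3.15 in Th17p. The contrast itself and Th17p share no library, but all 3 cell types come from the same animals.

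The distance between the cell types can also be read gene by gene. The gap between Th17n and iTreg was smaller with DFMO than with vehicle for 438 of the 628 genes called higher (69.75%) and for 514 of the 768 called lower (66.93%), against 6656 of all 11526 (57.75%). These shares use the libraries that made the calls and are given without a test. In the principal components of the 12 libraries, PC1 carried 44.6% and PC2 24.8% of the variance. On PC1 Th17n libraries with DFMO lay at -15.6 to -9.06 and vehicle ones at -74.6 to -67.8, while iTreg libraries with DFMO lay at 60.2 to 68.1 and vehicle ones at 12.3 to 26.9, so DFMO libraries lay higher than vehicle ones in both cell types. On PC2 Th17n libraries with DFMO lay at 51.5 to 55.2 and vehicle ones at -14.4 to -11.7, while iTreg libraries with DFMO lay at 5.11 to 11.7 and vehicle ones at -51.4 to -43.7.

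Promoters were also searched on both strands for other short motifs, and matches of the STAT and interferon elements can overlap. The E-box CACGTG stood in 11.1% of promoters of genes called higher, 9.54% of those called lower and 10.4% of all tested. The cAMP response element TGACGTCA stood in 4.54%, 2.56% and 3.31%, and the AP-1 site TGANTCA in 4.74%, 6.47% and 4.85%. The STAT element TTCNNNGAA stood in 7.01%, 6.30% and 7.0%. For each of these motifs and for the interferon element, the share in both called sets had a 95% Wilson interval that held the share over all tested genes. A match is a run of letters and not a bound site.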

How the data were processed

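RNA of 18 libraries was sequenced as read pairs in 2 runs each. Per the submitters' processing notes, Bowtie2 and RSEM were used on GRCm38.p3; their versions and the gene annotation are not given in the sources used. The deposited expected counts are per gene and not normalized, and 12.17% of values were not whole; the 2 runs were summed and rounded. The deposited TPM values (length-scaled, set by the authors) served as an alternative, and the 20817 listed genes hold 72.432 to 80.557% of the TPM scale. Levels between genes were not compared.

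All 18 libraries were fitted in edgeR 4.0.16 (R 4.3.3; robust quasi-likelihood, TMM, filterByExpr by group, 1 mean for each of 6 groups), and the scripts were tested on simulated data. SE is the log2 difference over the root of F. Adjusted p-values are from edgeR unless limma 3.58.1 or DESeq2 1.42.0 is named. The animal numbers come from the labels. Deviations from the group means correlated with a median of 0.11 over 18 same-animal pairs and -0.06 over 36 pairs of other animals and groups, so a fit with the animal as block was run as an alternative. Others changed scaling, filter, tool, runs and animals.

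Named genes were the 10 largest called differences in each direction (mean log2 CPM of at least 3, same sign in 3 animals, no predicted, histone or receptor-segment gene), the 5 largest in each direction with opposite effects, up to 2 called members of each of 35 lists by p, and 25 fixed genes. Other list members and genes named beside them were chosen after their values were seen. The members and lists were chosen with earlier results of these data known. The lists named 646 different genes, some of them in more than 1 list, and 633 of these genes were found. Counts cover whole lists; a few members and 1 promoter motif are not reported here. Values within 1 animal use log2 CPM with a prior count of 2. Symbols were placed with GENCODE M21 (20079 of 20817 matched).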

Additional observations from a re-analysis of the deposited data

Results flagged for a closer look

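Of the genes named by the rule and reported here, 74 had DFMO effects that differed between Th17n and iTreg in edgeR's quasi-likelihood test of the difference itself (adjusted p under 0.05), and each is given with that difference (log2, Th17n minus iTreg). Since most were chosen because they differed, their number is no result. Groups of 3 libraries were too small to look for single outlying samples. The difference was 3.90 for Tgm2, 3.24 for Tead1, 3.18 for Foxp3, 3.06 for Atf3, 2.98 for Chst2, 2.69 for Tgtp2, 2.61 for P4ha2, 2.56 for Ccl3 and 2.41 for Nr4a2. It was 2.40 for Gvin1, 2.29 for Ehd3, 2.10 for Zbp1, 2.09 for Ctla4, 1.90 for Trp53inp2, 1.77 for Tagap, 1.75 for Trib3, 1.66 for Sgcb and 1.47 for Pmaip1. Further values were 1.29 for Parp14, 1.29 for Cd69, 1.2 for Lamp1, 1.15 for Cdc6, 1.03 for Rrm2, 1.02 for Sc5d, 1.0 for Kdm1a, 0.84 for Il6st and 0.80 for Nolc1. Among smaller ones were 0.80 for Azin1, 0.77 for Odc1, 0.76 for Slc7a1, 0.75 for Manf, 0.74 for Nop56, 0.61 for Mki67, 0.59 for Btla, 0.58 for Wars and 0.58 for Nedd9. The smallest were 0.52 for Hsp90b1 and 0.37 for Ldha.

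Negative differences were -5.98 for Prf1, -5.27 for Timp1, -4.75 for Adm, -4.36 for Il24, -4.18 for Kit, -3.72 for Gcnt2, -3.22 for Cd68, -3.06 for Crispld2 and -2.99 for Itgae. They were -2.76 for Nos2, -2.74 for Tnfrsf9, -2.61 for Cxcr5, -2.61 for Il17f, -2.53 for Bend4, -2.49 for Lrp1, -2.0 for Cd79b, -1.42 for Lgals3 and -1.37 for Socs3. Others were -1.36 for Tnfsf14, -1.27 for Cxcr3, -0.88 for Ier3, -0.85 for Cd3g, -0.79 for Ezh1, -0.77 for Il21r, -0.76 for Stat3, -0.69 for Ptpn2 and -0.67 for Gabarap. Smaller ones were -0.66 for Hadh, -0.65 for Cd3d, -0.60 for Satb1, -0.56 for Sdha, -0.55 for Il4ra, -0.51 for Mdh1, -0.49 for Hadha, -0.47 for Eif5a and -0.29 for Oaz1. The value of Prf1 is a fitted one that rests on 2 to 24 counts a group and bounds nothing.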

How the results depend on the processing

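Counts of genes with a higher and a lower difference were 628 and 768. Without 1 animal they ranged from 134 to 517 and from 143 to 660. Without scaling factors they were 1509 and 450, and with limma on log2(TPM + 1) 2190 and 407; the cause was not tested. With centred TPM, an alternative added after seeing the data, they were 534 and 1126. At an adjusted p under 0.01 there were 37 genes with opposite effects and 82 moving the same way, both fewer by construction. At that threshold 312 were called in Th17n alone and 147 in iTreg alone. With the animal as replicate block, which the labels' animal numbers support, 903 and 945 were called, 1389 of the 1396 main calls among them; among named genes Il17f (-2.60, adjusted p = 0.0738) was lost and Srm (1.67, adjusted p = 0.0155) and Tbx21 (1.75, adjusted p = 0.0411) gained. DESeq2 gave 780 and 957, DESeq2's size factors in edgeR 590 and 797, the 12 libraries alone 529 and 635, no filter on low counts 600 and 692, a mean of at least 50 counts 624 and 817, 1 run alone 500 and 680 or 564 and 625, and no robust fit 650 and 777. No called gene changed sign in these fits, except 6 of 1396 on log2(TPM + 1) and 3 with centred TPM. Oaz1 reversed to 0.016 on log2(TPM + 1). Of the named genes, 34, 43 and 9 lost their call without animals 1, 2 and 3, where 2 animals a group remained. Depth of 8307662 to 12594432 counts leaves lineage cytokines in iTreg (Il17a, Il21 and Il10, at most 2 counts a group) without a measurable DFMO effect.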

Other observations

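Sat1 and Srm differed between the animals, whatever the treatment. Sat1, the enzyme that acetylates polyamines for export, read 275, 34.1 and 335 CPM in animals 1, 2 and 3 in Th17n cells with DFMO and 373, 23.9 and 352 CPM in vehicle Th17n cells. In iTreg cells it read 216, 24.6 and 262 CPM with DFMO and 269.8, 26.9 and 296 CPM with vehicle, so animal 2 was low in all 4 groups. Srm read 62.6, 57.1 and 138 CPM in iTreg cells with DFMO and 30.4, 33.7 and 89 CPM in vehicle iTreg cells, with animal 3 highest in both. Its Th17n levels were 81.9, 54.3 and 239 CPM with DFMO and 19.9, 12.7 and 27.9 CPM with vehicle. Animal 3 was highest there too, but by little with vehicle.

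Il22, a Th17 cytokine that acts on epithelia, had 6.11, 2.56 and 64.4 CPM in Th17n cells with DFMO and 7.57, 6.89 and 6.04 CPM in vehicle Th17n cells, and the library of animal 3 with DFMO stood alone. The interferon genes Isg15 and Ifit1 had 7.08, 6.14 and 1.92 and 25.5, 10.7 and 0.436 CPM in animals 1, 2 and 3 in iTreg cells with DFMO, with animal 3 lowest, against 53.5, 73.1 and 106 and 40.1, 61.5 and 55.7 CPM in vehicle iTreg cells. These genes were picked after their values were seen.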
